A study of Mus musculus with 16 samples.

Results

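Malat1, Neat1, Meg3, Rian, Mirg, Miat and Snhg11 are long noncoding RNAs of the mouse brain, and their 7 rows were taken by gene symbol from the 24972 genes quantified in every bulk RNA-seq library of the dorsal hippocampus. The set was proposed as abundant RNAs and selected on values of these same libraries, although Mirg does not rank among the abundant genes, so levels and ranks are given as a description and carry no test. The 16 libraries came from adult ArcCreERT2::eYFPflx mice, 3 to 4 months old on a C57BL/6 background, a genotype that trained and untrained animals share and in which a tamoxifen-inducible Cre recombinase is driven from the Arc promoter. Trained mice had learned to avoid a shock zone on a rotating arena, and untrained mice were placed on the same arena with the shock switched off. Tissue of CA1, CA3 and the dentate gyrus (DG) was microdissected after a retention test and the pieces of an animal were pooled by subregion. The libraries are 3 trained and 3 untrained of CA1, 3 trained and 2 untrained of CA3, and 3 trained and 2 untrained of DG, from 3 mice per training group.

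Long noncoding RNAs are transcribed and spliced much like messenger RNAs but act without being translated, and several of the most abundant ones in neurons stay in the nucleus. Malat1 accumulates in nuclear speckles, which store splicing factors, and Neat1 is the scaffold on which paraspeckles assemble. Meg3, Rian and Mirg are maternally expressed RNAs of the imprinted Dlk1-Dio3 region, where Rian carries C/D box snoRNAs and Mirg carries a large cluster of microRNAs. Miat, also called Gomafu, forms its own nuclear foci and binds splicing regulators such as Qk, Sf1 and Celf3. Snhg11 is a neuron-enriched host gene of snoRNAs.

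On GRCm38 (GENCODE M21), the 3 imprinted RNAs lie in a row on the plus strand of chromosome 12. Meg3 spans chr12:109541001-109571726, Rian spans chr12:109603940-109661716 after a gap of 32.2 kb, and Mirg spans chr12:109729764-109749460 after a further 68.1 kb. Malat1 (chr19:5795690-5802672) and Neat1 (chr19:5824708-5845478) are neighbours on the minus strand of chromosome 19, 22.0 kb apart. Miat lies at chr5:112213228-112229395 on the minus strand, and Snhg11 at chr2:158375638-158386145 on the plus strand, and this annotation types the gene as protein coding.

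The promoters of Meg3, Malat1 and Snhg11 are shown because these RNAs lead the levels or the training comparison. The RefSeq table of GRCm38.p6 holds windows for 6 of the 7 genes, each from 250 bases before to 50 bases after the transcript start, and none for Neat1. Meg3 has 2 windows in the table, of which the one at the 5′ end of the annotated gene is printed, and the other, at chr12:109545148-109545447, holds none of the letters searched. Capitals mark matches on either strand to TGACGTCA (the cAMP response element, CRE), its core TGACG, the TATA box TATAAA, the CCAAT box, the GC box GGGCGG, the AP-1 site TGACTCA, the E-box CACGTG or the EGR site GCGTGGGCG. The full element contains the core, so these matches overlap. The windows are chr12:109540746-109541045 (plus strand), chr19:5802623-5802922 (minus strand) and chr2:158375463-158375762 (plus strand).
Meg3: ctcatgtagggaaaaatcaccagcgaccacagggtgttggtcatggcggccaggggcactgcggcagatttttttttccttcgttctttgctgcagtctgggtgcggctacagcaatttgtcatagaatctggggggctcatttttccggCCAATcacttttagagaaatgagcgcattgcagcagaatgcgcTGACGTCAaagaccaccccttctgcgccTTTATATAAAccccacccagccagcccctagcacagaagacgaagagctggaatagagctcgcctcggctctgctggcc
Malat1: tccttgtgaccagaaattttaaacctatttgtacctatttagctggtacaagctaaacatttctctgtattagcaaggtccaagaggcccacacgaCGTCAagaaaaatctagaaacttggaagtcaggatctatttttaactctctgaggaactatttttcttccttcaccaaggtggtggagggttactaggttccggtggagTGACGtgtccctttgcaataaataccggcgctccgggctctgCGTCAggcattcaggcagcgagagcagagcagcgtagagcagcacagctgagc
Snhg11: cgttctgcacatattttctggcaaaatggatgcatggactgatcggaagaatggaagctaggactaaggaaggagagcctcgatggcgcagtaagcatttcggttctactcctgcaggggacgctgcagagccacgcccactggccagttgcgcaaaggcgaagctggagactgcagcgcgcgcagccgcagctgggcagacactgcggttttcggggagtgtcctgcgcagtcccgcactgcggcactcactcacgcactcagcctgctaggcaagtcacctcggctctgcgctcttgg
The printed Meg3 window holds a full CRE that begins 57 bases before the start, a TATA box 25 bases before it that overlaps a match on the opposite strand, and a CCAAT box 100 bases before it. Of the 32851 promoter windows of the table, 1.79% hold the full CRE, 20.8% the core, 13.6% the TATA box and 37.4% the CCAAT box. The Malat1 window holds the core at 3 places and no full element. The Snhg11 window, with a GC content of 60.0% and 21 CpG dinucleotides, holds none of the letters searched. These matches are a description of the sequence and were not tied to any measurement.

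Mirg is listed among these RNAs for its microRNAs, so 3 of the mature sequences inside its span are shown, with the seed (bases 2 to 8) in capitals. They are miR-382-5p at chr12:109733781-109733802, miR-134-5p, known to act on dendritic spines, at chr12:109734145-109734166, and miR-410-3p at chr12:109743764-109743784, all on the plus strand.
mmu-miR-382-5p: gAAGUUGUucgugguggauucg
mmu-miR-134-5p: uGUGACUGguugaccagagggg
mmu-miR-410-3p: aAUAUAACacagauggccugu
Each has a seed of its own, and the 26 mature microRNAs that the table places inside Mirg have 25 seeds among them. All 14 annotated microRNA genes inside Mirg have a row in the deposited files, and all 14 are listed at 0 in every library. Both microRNA genes inside Meg3 are listed at 0 in every library as well. Of the 3 inside Rian that have a row, 2 are at 0 in every library and Mir1188 is above 0 in 6 libraries, with a highest value of 3.57. Mirg values are therefore those of the host transcript, and mature microRNAs were not measured here.

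All values below are estimated read counts that the authors normalized between libraries, so the depth behind a value is unknown and no counting interval is given. The values of a library summed to between 7607326 and 7984931. Libraries stood apart in several ways that touch the results. Xist lay between 7601 and 19592 in the 9 trained libraries and between 25.5 and 52.4 in 6 of the 7 untrained ones, with 10587 in CA3 untrained replicate 1, so Xist tracked the training labels in all but 1 library, although the methods place both sexes in each training group, and an effect of training and one of sex can hardly be told apart. CA3 untrained replicate 1 also had a Y-linked sum of 601, against 1333 and 1408 in the CA1 and DG libraries with the same training and number. Whether it came from the labelled animal alone is thus in doubt and was not settled. In DG trained replicate 3 the Y-linked sum was 678 against at most 268 in the other trained libraries. Between 7567 and 9759 genes were at 0 in 7 libraries (all CA1 trained, CA3 trained replicates 1 and 2, and both DG untrained) against 3124 to 5944 in the other 9. The subregion labels were only partly mirrored by markers. Between CA1 and CA3, 5 of 6 CA1 pyramidal markers were higher and 2 of 6 CA3 pyramidal markers lower in CA1 at an adjusted p under 0.05 by limma. Of all genes, 0.988% passed that threshold there. The summed value of 6 CA1 pyramidal markers was 3281 to 5300 in CA1 untrained libraries but 1624 to 2011 in CA1 trained ones, near the 1351 to 2142 of DG, and the sum of 7 dentate granule markers was 9497 to 11711 in CA1 against 10208 to 12936 in DG. No marker of either list was at 0 in a group mean. In bulk tissue, fewer cells of a type and less RNA per cell cannot be told apart.

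Malat1 had the highest mean value of all genes, and the 7 RNAs together made up 2.41% to 3.79% of all values in a library. By mean value over the 16 libraries Malat1 ranked 1, Meg3 16, Snhg11 135, Miat 210, Rian 616, Neat1 2033 and Mirg 10908 of 24972 genes. Mirg, at a mean value of 46.8, is thus not an abundant RNA in these libraries. Per kb of the longest annotated transcript, the mean value was 31694 for Malat1, 1076 for Meg3, 1037 for Snhg11, 503 for Miat, 279 for Rian, 43.1 for Neat1 and 12.3 for Mirg. Per kb of merged exons the level was 124 for Rian and 6.42 for Mirg. Per kb of the longest transcript Meg3 and Snhg11 were nearly level, and their difference is smaller than the coefficient of variation over libraries of either, 18.0% and 17.3%. Per kb of merged exons they were further apart, at 865 and 714. The labels describe polyA RNA and also an rRNA depletion kit, and Malat1 and the long form of Neat1 end in a triple helix in place of an ordinary poly(A) tail, so the level of either relative to the other RNAs may depend on a selection step that the sources used here do not settle. All 7 passed the filter on low values (a value of at least 10 in as many libraries as the smallest group) in every comparison.

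**Figure D1:**
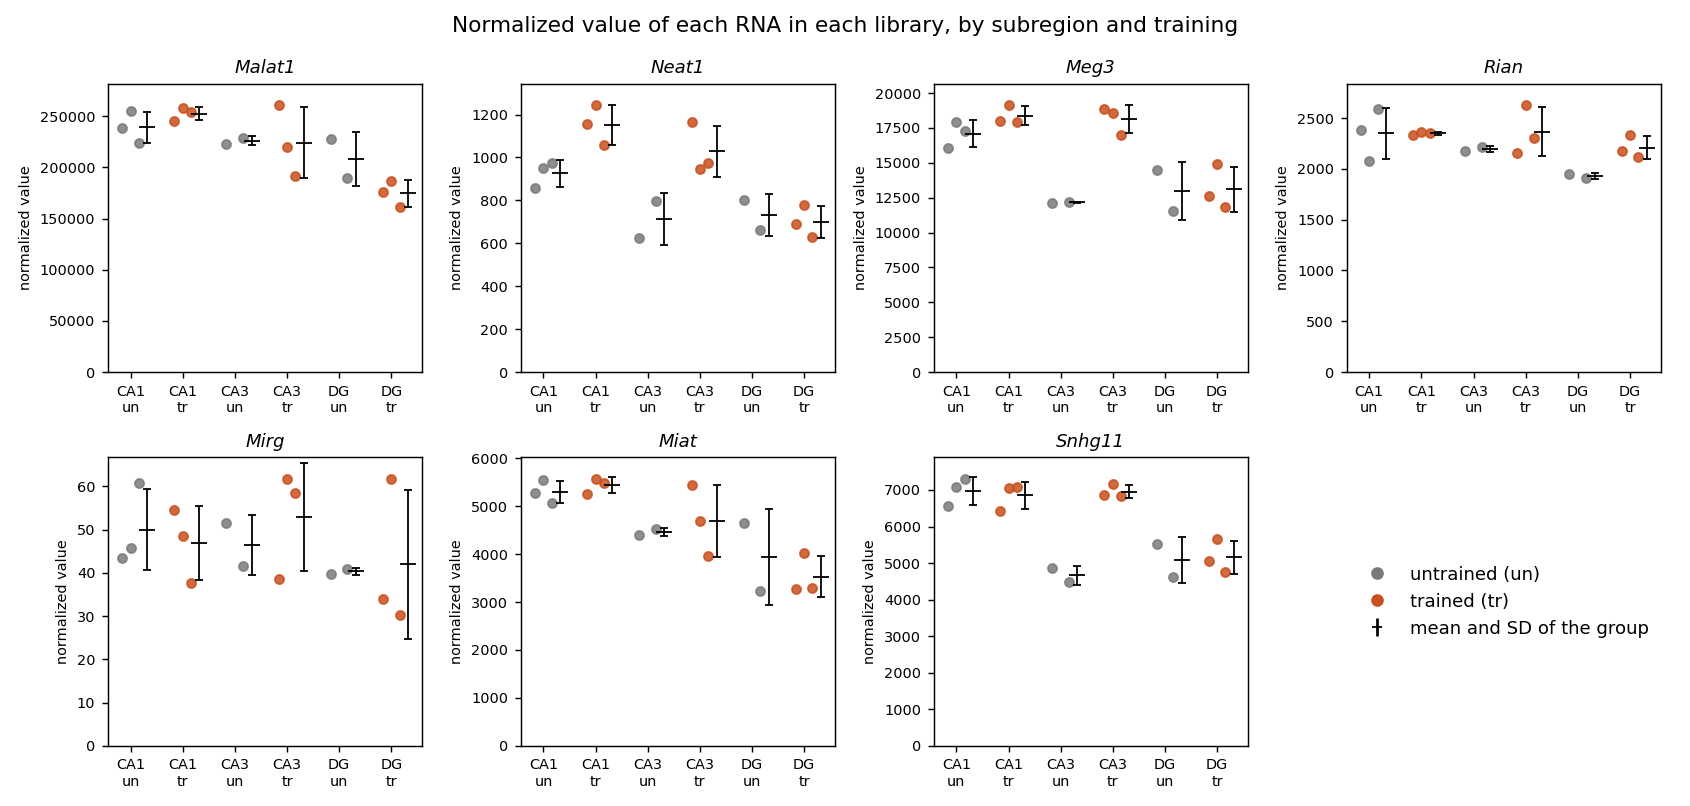
Normalized value (vertical axis, from 0) of each RNA in each of the 16 libraries, by subregion and training (un, untrained; tr, trained), with the mean and SD of each group in black. Snhg11 and Meg3 are high in all 6 CA1 libraries and the 3 CA3 trained libraries and low in the 2 CA3 untrained and 5 DG libraries.

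Malat1 was highest in CA1 and lowest in DG. In CA1 its value was 238612, 254774 and 223989 in the untrained libraries and 245623, 257881 and 254318 in the trained ones. In CA3 it was 223188 and 229083 untrained and 261089, 219875 and 191597 trained. In DG it was 227369 and 189774 untrained and 175708, 186948 and 161268 trained. The CA3 trained libraries spread more widely than any other group (coefficient of variation 15.6%), and only in DG were the training groups apart, with all 3 trained libraries below both untrained ones. Differences are given as log2 differences from limma on log2(value + 2), with Benjamini-Hochberg adjusted p-values over all genes tested. The trained minus untrained difference was 0.08 (SE 0.041, adjusted p = 0.332) in CA1, -0.02 (SE 0.116, adjusted p = 0.941) in CA3 and -0.25 (SE 0.109, adjusted p = 0.323) in DG. None of the 3 passed the threshold of 0.05, and groups did not overlap for 24% of all genes tested within CA1, 33.9% within CA3 and 35.6% within DG. In DG Malat1 passed without untrained replicate 3 (-0.38, adjusted p = 0.00625), and the difference was -0.12 (adjusted p = 0.365) without untrained replicate 1.

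Neat1 was higher in trained than in untrained CA1. Its value was 856, 949 and 976 in the untrained CA1 libraries and 1155, 1245 and 1056 in the trained ones, which gives 927 ± 62.9 (SD, n = 3) and 1152 ± 94.4 (SD, n = 3). All 3 trained libraries lay above all 3 untrained ones, and the log2 difference of 0.31 (SE 0.072, 95% interval 0.16 to 0.46) passed the limma test with an adjusted p of 0.0142. Neat1 was the 1 of 7 RNAs called in CA1, where 5.23% of the genes tested were called. In CA3 its value was 626 and 798 untrained and 1165, 948 and 975 trained. These groups did not overlap either, yet the larger difference of 0.53 (SE 0.123) had an adjusted p of 0.0851. In DG the values were 800 and 661 untrained and 692, 780 and 628 trained, which overlap (difference -0.06, SE 0.104, adjusted p = 0.799). The CA1 call was lost without trained replicate 2 (0.25, adjusted p = 0.106) and without untrained replicate 1 (0.26, adjusted p = 0.122), in 1 fit of all libraries (adjusted p = 0.0960) and after removal of the GC and length trend (0.24, adjusted p = 0.0535), and the difference was -0.47 (adjusted p = 0.9997) when the score of Y-linked genes minus Xist was added as a covariate. It was 0.63 (adjusted p = 0.591) with the number of genes at 0 and 0.43 (adjusted p = 0.329) with the CA1 marker sum as a covariate. Each of these covariates separated the CA1 training groups, so these fits can hardly tell them from training. In the same CA1 libraries 3 of 6 CA1 pyramidal markers fell, 5 of 6 CA3 pyramidal markers rose, 5 of 7 neuron markers rose and 3 of 9 immediate early genes fell with training, and their part in the result was not tested.

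Neat1 was far less abundant than its neighbour, with 2.80 to 5.09 units of Neat1 per 1000 of Malat1 in a library. This ratio does not depend on the scaling between libraries. It was 3.14 ± 0.480 (SD, n = 2) in untrained and 4.62 ± 0.412 (SD, n = 3) in trained CA3, and 3.50 ± 0.0275 (SD, n = 2) and 4.0 ± 0.148 (SD, n = 3) in DG. The trained libraries lay above the untrained ones in both subregions, where single genes did not overlap for 33.9% and 35.6%. The ratio was not tested. In DG the Neat1 values themselves overlapped, and all trained Malat1 values lay below the untrained ones. In CA1 the ratio of untrained replicate 3, 4.36, was above that of trained replicate 3, 4.15.

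Meg3 rose with training in CA3. Its value was 12136 and 12199 in the CA3 untrained libraries and 18866, 18544 and 17010 in the CA3 trained ones, or 12168 ± 44.7 (SD, n = 2) against 18140 ± 991 (SD, n = 3). The log2 difference was 0.57 (SE 0.072, 95% interval 0.42 to 0.73, limma adjusted p = 0.00733), a fold of 1.49. In CA1 Meg3 was 16068, 17958 and 17246 untrained and 18012, 19145 and 17943 trained, so that the trained CA3 libraries lay in the range of CA1. The CA1 difference was 0.10 (SE 0.042, adjusted p = 0.176), and the groups overlapped. In DG it was 14468 and 11534 untrained and 12614, 14925 and 11803 trained. The DG difference of 0.01 (SE 0.154, 95% interval -0.41 to 0.44, adjusted p = 0.974) was far inside the spread between libraries.

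Rian, the snoRNA host downstream of Meg3, varied little. Its value was 2383, 2079 and 2585 in CA1 untrained and 2332, 2363 and 2350 in CA1 trained libraries. In CA3 it was 2177 and 2216 untrained and 2156, 2629 and 2308 trained. In DG it was 1948 and 1906 untrained and 2173, 2333 and 2119 trained, where all trained libraries lay above both untrained ones. The DG difference of 0.19 (SE 0.066) had an adjusted p of 0.110, and those of CA1 (0.01, SE 0.065, adjusted p = 0.981) and CA3 (0.10, SE 0.090, adjusted p = 0.618) were within the overlap of their groups. Over all 16 libraries the coefficient of variation was 8.80%, the smallest of the 7 RNAs.

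The ratio of Rian to Meg3, which needs no scaling between libraries, was 0.179 and 0.182 in the CA3 untrained libraries and 0.114, 0.142 and 0.136 in the CA3 trained ones. In CA1 it was 0.138 ± 0.0193 (SD, n = 3) untrained and 0.128 ± 0.00398 (SD, n = 3) trained, and in DG 0.150 ± 0.0217 (SD, n = 2) and 0.169 ± 0.0119 (SD, n = 3). Groups overlapped in CA1 and DG but not in CA3, where single genes did not overlap for the 33.9% given above, and the ratio was not tested. Of 13 snoRNA genes annotated inside Rian, 4 have a row in the files, 2 of these are at 0 in every library and 1, AF357425, passed the filter. AF357425 was listed at 84.7, 15.1 and 59.8 in the CA1 trained libraries and at 0 to 13 in the other 13. Reads of such a short RNA and of its host overlap, and how they were split between the 2 is not given in the sources used here.

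Mirg, the microRNA host at the far end of the cluster, was low and variable. Its value was 43.5, 45.7 and 60.7 in CA1 untrained and 54.5, 48.6 and 37.7 in CA1 trained libraries. In CA3 it was 51.4 and 41.6 untrained and 38.6, 61.8 and 58.5 trained, and in DG 39.7 and 40.9 untrained and 33.9, 61.8 and 30.4 trained. The groups overlapped in every subregion. The training difference was -0.09 (SE 0.225) for CA1, 0.16 (SE 0.231) for CA3 and -0.01 (SE 0.297) for DG. The 95% interval in DG, -0.64 to 0.62, includes changes of the size seen for Meg3 in CA3, so such a change was not detectable at this level. Mirg made up 2.05 to 4.24 units per 1000 of Meg3.

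Miat followed Malat1 from library to library. Its value was 5282, 5538 and 5077 in CA1 untrained and 5249, 5575 and 5493 in CA1 trained libraries. In CA3 it was 4406 and 4520 untrained and 5439, 4682 and 3956 trained, and in DG 4648 and 3228 untrained and 3278, 4033 and 3285 trained. The training groups overlapped in every subregion, with differences of 0.04 (SE 0.046, adjusted p = 0.715) in CA1, 0.06 (SE 0.119, adjusted p = 0.845) in CA3 and -0.14 (SE 0.212, adjusted p = 0.789) in DG. The DG difference was 0.52 with the number of genes at 0 as a covariate. The 4 splicing regulators listed as binding Miat (Qk, Sf1, Celf3, Srsf1) were all tested and none was called in any comparison, where 0.00682% to 10.3% of all genes were called, so that 0 of 4 is near the share of all genes.

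Snhg11 had a pattern like that of Meg3. Its value was 6555, 7084 and 7308 in CA1 untrained and 6431, 7053 and 7083 in CA1 trained libraries. In CA3 it was 4855 and 4480 untrained against 6868, 7166 and 6827 trained, or 4667 ± 265 (SD, n = 2) and 6954 ± 185 (SD, n = 3). In DG it was 5526 and 4628 untrained and 5060, 5652 and 4751 trained. Only in CA3 were the training groups apart, with a log2 difference of 0.58 (SE 0.072, 95% interval 0.42 to 0.73, limma adjusted p = 0.00733). In CA1 (-0.03, SE 0.050, adjusted p = 0.833) and DG (0.02, SE 0.085, adjusted p = 0.914) the groups overlapped. The ratio of Meg3 to Snhg11 was between 2.36 and 2.80 in every library. Neither snoRNA gene annotated inside Snhg11 has a row in the files used here.

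Snhg11 and Meg3 were the 2 of 7 RNAs called in CA3, where 0.852% of the genes tested were called. Both calls rest on 2 untrained libraries, 1 of which is the one with the high Xist value. Without that library Snhg11 kept its call and Meg3 did not (0.57, adjusted p = 0.0783). Without untrained replicate 2 neither passed (adjusted p = 0.0590 for Snhg11 and 0.0559 for Meg3), nor without trained replicate 2 (0.100 and 0.101). Neither passed with the score of Y-linked genes minus Xist as a covariate (0.0927 and 0.0849) or with the CA1 marker sum as a covariate (0.103 for both), while over all alternatives the difference stayed between 0.47 and 0.65 for Snhg11 and between 0.53 and 0.62 for Meg3. Markers of several cell types moved with the CA3 groups. The summed neuron markers were 31683 and 32596 in the untrained and 33466 to 36055 in the trained libraries, which do not overlap. Single genes did not overlap for 33.9% of those tested in CA3. Of the neuron markers 0 of 7 were called, and Map2, the largest of them, had means of 17714 untrained and 17412 trained. Of the CA3 pyramidal markers 1 of 6 and of the interneuron markers 1 of 7 were called higher, beside the 0.852% of all genes. For choroid plexus markers the summed value was 804 to 1111 in the untrained and 235 to 314 in the trained libraries, 2 of the 4 tested fell, and Kcne2 was at 0 in 2 of the 3 trained libraries. For dentate granule markers it was 14592 and 11906 in the untrained and 12645, 9364 and 8654 in the trained libraries, which overlap. Of these markers 0 of 7 were called. In CA3 untrained replicate 1 the dentate granule sum was above the 10208 to 12936 of the DG libraries. The part of these markers in the result was not tested.

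**Figure D2:**
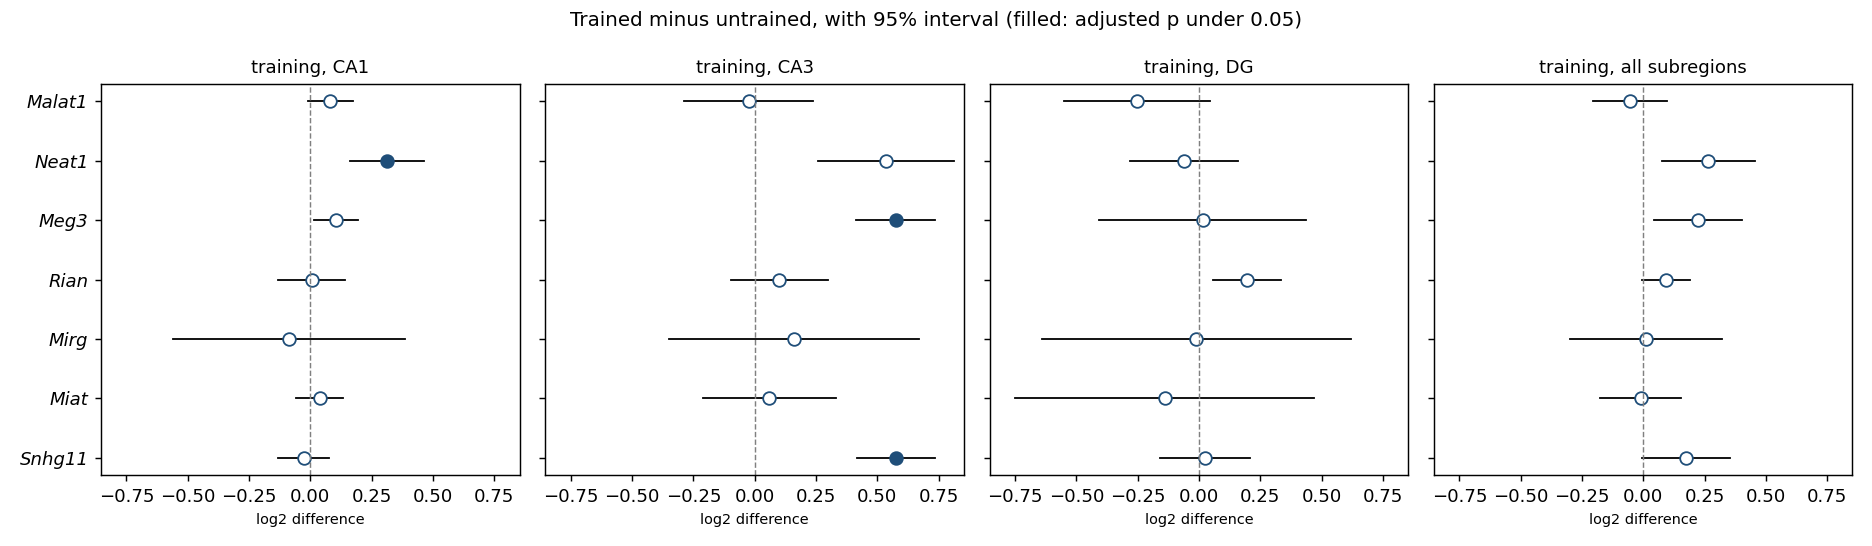
Log2 difference between trained and untrained libraries (horizontal axis, log2 units; positive is higher in trained) for each RNA in CA1, CA3, DG and over all subregions, with 95% intervals. Filled points passed an adjusted p of 0.05, which are Neat1 in CA1 and Meg3 and Snhg11 in CA3.

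In DG, 0 of the 7 RNAs were called by limma, where 3.39% of genes were called, and 1 (Rian) had an unadjusted p under 0.05, as did 19.5% of genes. Over all 16 libraries with the subregion as a term, 0 were called, against 10.3% of genes, and 2 (Meg3 and Neat1) had an unadjusted p under 0.05, as did 25.5% of genes. Neat1 came nearest, with a difference of 0.27 (SE 0.089, adjusted p = 0.0668), followed by Meg3 with 0.22 (SE 0.084, adjusted p = 0.110). Neat1 passed without CA3 untrained replicate 1 and DG trained replicate 3 (0.23, adjusted p = 0.0482), the libraries whose sex-linked transcripts stand apart from those of their animal. The median over the 7 RNAs was 0.09, beside -0.01 over all genes tested.

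The training difference of Snhg11 itself differed between subregions. In 1 fit of the 6 groups, the CA1 difference minus the CA3 difference was -0.60 (SE 0.102, adjusted p = 0.0242), and the CA3 difference minus the DG difference was 0.55 (SE 0.108, adjusted p = 0.0346). Of all genes, 0.0273% and 0.164% were called in these comparisons. For Meg3 the same values were -0.47 (SE 0.128, adjusted p = 0.346) and 0.56 (SE 0.135, adjusted p = 0.124), so its training difference was not shown to differ between subregions. In the comparison of CA1 with DG, where 2.75% of genes were called, limma called 0 of the 7, and 1 (Neat1, 0.37, SE 0.159, adjusted p = 0.224) had an unadjusted p under 0.05, as did 17.8% of genes. The first Snhg11 call was lost without trained replicate 2 (adjusted p = 0.223), trained replicate 3 (0.117) or untrained replicate 2 (0.115), and the second without any single replicate other than untrained replicate 3, with adjusted p from 0.0556 to 0.178. Both were lost without robust estimation (0.0865 and 0.0779) and with the CA1 marker sum as a covariate (0.998 and 0.0631). The second was also lost with upper-quartile rescaling (0.0520), with equal sums over the other genes (0.0819), with the number of genes at 0 as a covariate (0.367) and without CA3 untrained replicate 1 and DG trained replicate 3 (0.125).

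Between subregions, averaged over training, 5 of the 7 RNAs were called between CA1 and DG, all higher in CA1, where 4.05% of the genes tested were called. Snhg11 differed by 0.44 (SE 0.051, limma adjusted p = 0.000138) and had the smallest p of all genes in this comparison. Its values in the 6 CA1 libraries (lowest 6431, median 7068, highest 7308) lay above those of all 5 DG libraries (4628 to 5652). Meg3 differed by 0.45 (SE 0.064, adjusted p = 0.00212) and its 16068 to 19145 in CA1 did not overlap the 11534 to 14925 in DG. Neat1 differed by 0.53 (SE 0.080, adjusted p = 0.00182), from 856 to 1245 in CA1 against 628 to 800 in DG. These 3 calls remained in every alternative tried.

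Miat and Malat1 were also called between CA1 and DG, but less firmly. Miat differed by 0.54 (SE 0.103, adjusted p = 0.0170), with 5077 to 5575 in CA1 and 3228 to 4648 in DG. Malat1 differed by 0.37 (SE 0.080, adjusted p = 0.0327), and DG untrained replicate 1, at 227369, lay inside the CA1 range of 223989 to 257881. Leaving out any 1 of 4 animals ended the Malat1 call (trained replicate 2, untrained replicates 1, 2 and 3; adjusted p from 0.0731 to 0.121), and leaving out trained replicate 2 or untrained replicate 2 ended the Miat call (0.0553 and 0.0660). Malat1 also failed without the filter on low values (0.0533), and both failed with the CA1 marker sum as a covariate (0.0633 for Malat1 and 0.0770 for Miat). Without CA3 untrained replicate 1 and DG trained replicate 3 neither passed (0.0679 for Miat and 0.0988 for Malat1). Rian (0.18, SE 0.054, adjusted p = 0.0538) and Mirg (0.24, SE 0.184, adjusted p = 0.507) did not pass. Cell type markers moved with the same contrast. The summed neuron markers were 29679 to 33346 in CA1 and 33898 to 35841 in DG, with 2 of 7 called lower in CA1. The summed endothelial markers were 786 to 936 in CA1 and 442 to 847 in DG, with 3 of 5 called higher in CA1, and none of either list was at 0. Of the CA3 pyramidal markers 2 of 6 and of the interneuron markers 1 of 7 were called lower in CA1, and 0 of 6 CA1 pyramidal and 0 of 7 dentate granule markers were called by limma. Their part in the result was not tested.

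Between CA1 and CA3, Snhg11 alone was called (0.28, SE 0.051, limma adjusted p = 0.00621), where 0.988% of genes were called. Its CA1 range of 6431 to 7308 overlapped the CA3 trained libraries and lay above the CA3 untrained ones. The call was lost without untrained replicate 2 (0.24, adjusted p = 0.100) and with the CA1 marker sum as a covariate (0.24, adjusted p = 0.974). Meg3 (0.25, SE 0.064, adjusted p = 0.0813) and Neat1 (0.28, SE 0.080, adjusted p = 0.132) did not pass. In this contrast 5 of 6 CA1 pyramidal, 1 of 5 choroid plexus and 1 of 9 immediate early markers were called higher in CA1. Of the CA3 pyramidal markers 2 of 6 and of the neuron markers 1 of 7 were called lower. The part of these markers was not tested. Between CA3 and DG, limma called 0 of the 7 and 0.00682% of genes, while 6 of the 7 (all but Mirg) had an unadjusted p under 0.05, as did 6.86% of genes, with differences from 0.14 to 0.30 averaged over training. Among untrained libraries alone, however, the CA3 mean lay below the DG mean for Snhg11 (4667 and 5077), Meg3 (12168 and 13001) and Neat1 (712 and 731).

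**Figure D3:**
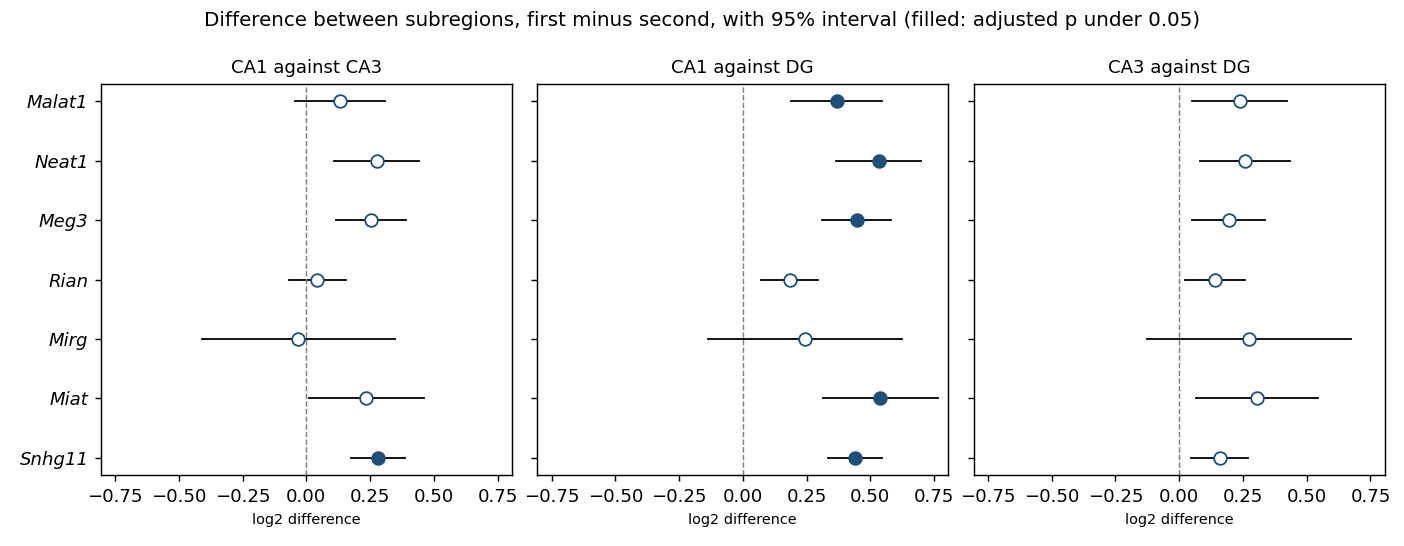
Log2 difference between subregions (horizontal axis, log2 units; first minus second), averaged over trained and untrained libraries, for each RNA, with 95% intervals. Filled points passed an adjusted p of 0.05. Those are Snhg11 in CA1 against CA3, and Snhg11, Meg3, Neat1, Miat and Malat1 in CA1 against DG, where all 7 differences are above 0.

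The order of subregions by mean value over all libraries was CA1, CA3, DG for 6 of the 7 RNAs, but this order turned within the training groups. It held in the untrained libraries for 4 RNAs, in the trained libraries for 4, and in both for 2, Miat and Malat1. In untrained libraries CA3 was the lowest for Snhg11, Meg3 and Neat1, and in trained libraries CA3 was the highest for Snhg11 (6954, against 6856 in CA1), Rian (2364 against 2348) and Mirg (53.0 against 46.9). For Snhg11 the means were 6919 ± 345 (SD, n = 6), 6039 ± 1266 (SD, n = 5) and 5124 ± 455 (SD, n = 5), and the wide CA3 value holds 2 separate training groups. For Miat they were 5369 ± 197 (SD, n = 6), 4601 ± 541 (SD, n = 5) and 3694 ± 629 (SD, n = 5). CA1 and CA3 did not differ beyond the test for Miat (adjusted p = 0.460), nor did CA3 and DG (adjusted p = 0.625). Over all libraries Mirg was the exception, with 48.5 ± 8.19 (SD, n = 6) in CA1, 50.4 ± 10.1 (SD, n = 5) in CA3 and 41.3 ± 12.2 (SD, n = 5) in DG.

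Pairs of the RNAs also varied together within groups. After the mean of each of the 6 groups was subtracted from log2(value + 2), Miat and Malat1 had a Pearson correlation of 0.914, Meg3 and Miat 0.865, Snhg11 and Meg3 0.847 and Meg3 and Neat1 0.724 over the 16 libraries. Rian and Mirg had 0.615, and Rian was close to uncorrelated with Miat (-0.04) and with Neat1 (-0.04). The points share animals and normalization, and the values are a description. By the same measure, genes of mean value at least 50 that were among the 3 most like each RNA, of 10767 compared, were Tsc2, Pcdha8 and D130017N08Rik for Snhg11 (0.946 to 0.896) and Pcnx and Mdn1 for Meg3 (0.923 and 0.919). They were Tex2, Disp2 and Dlc1 for Rian (0.925 to 0.897) and Ints3, Usp54 and 4931406P16Rik for Mirg (0.924 to 0.905). For the nuclear RNAs they were Mov10, Srcap and Pcnx for Miat (0.954 to 0.933), Tspoap1, Zfp704 and Ncam1 for Malat1 (0.957 to 0.943) and Pde3b, Snx30 and Camkk2 for Neat1 (0.882 to 0.861).

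**Figure D4:**
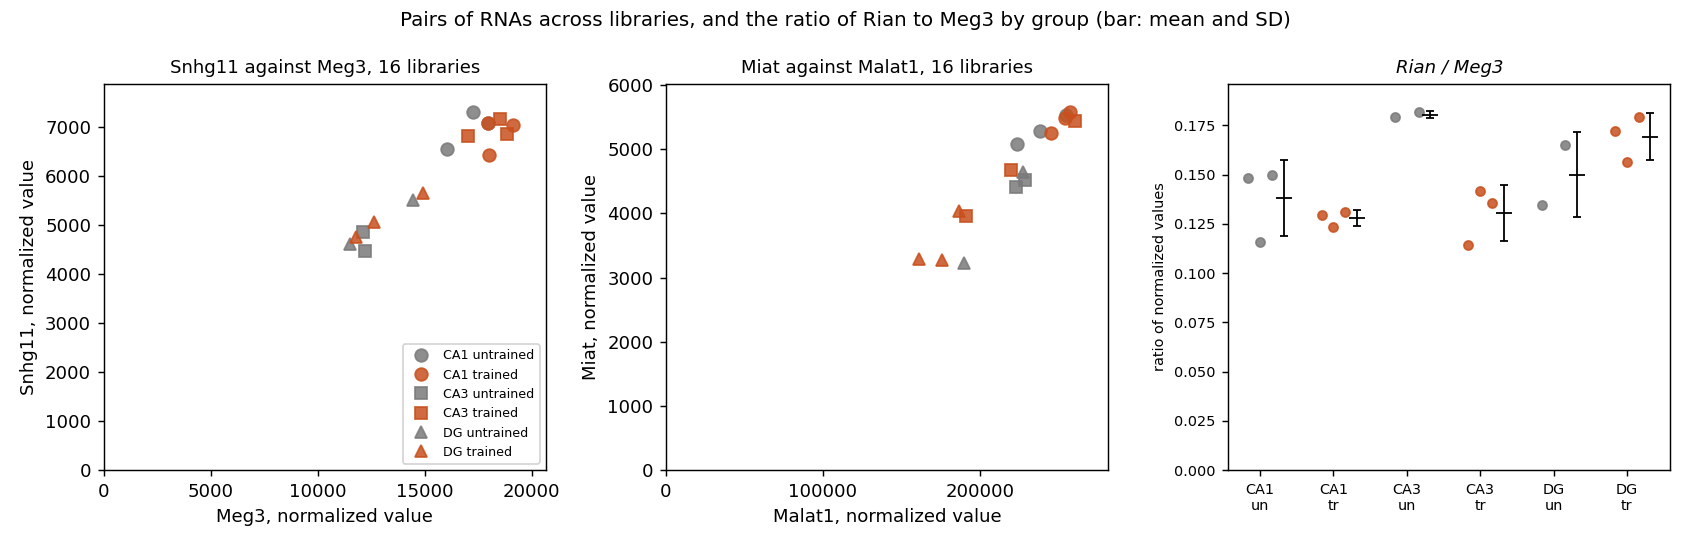
Left and middle, normalized values of Snhg11 against Meg3 and of Miat against Malat1 in the 16 libraries, with axes from 0. CA1 and CA3 trained libraries sit at the upper right of the left panel, apart from CA3 untrained and DG. Right, the ratio of Rian to Meg3 by group with mean and SD, where the 2 CA3 untrained libraries (0.179 and 0.182) lie above the 3 CA3 trained ones (0.114 to 0.142).

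Calls of other genes, given in the rest of the text, were less firm than the fits alone show. Of 50 such calls that were refitted (all but those of Luc7l3 and Tug1), 33 of them for training within a subregion or over all, none kept its side of the threshold in every alternative, and all 33 training calls were lost with the sex-linked score, which includes Xist, as a covariate. Xist separated the training groups fully in CA1 and DG, so that fit cannot weigh a training call there. For Xist the covariate also holds its own value. Leaving out any 1 animal kept 8 of the 50. These were Begain, Tsix and Xist in CA1 and over all subregions, Cpsf7 over all subregions and Srrm1 in DG.

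Other genes of the Dlk1-Dio3 region were read beside Meg3, Rian and Mirg. Begain, which encodes a postsynaptic density protein, rose with training in CA1 (0.50, SE 0.095, limma adjusted p = 0.00304), in CA3 (0.49, SE 0.091, adjusted p = 0.0371) and over all subregions (0.37, SE 0.066, adjusted p = 0.00108). Wdr25 rose over all subregions (0.44, SE 0.122, adjusted p = 0.0216). Rtl1, a retrotransposon-derived gene transcribed from the paternal copy, rose in DG (2.59, SE 0.607, adjusted p = 0.0289) at low values. Its training difference in CA1 minus that in DG was -4.15 (SE 0.901, adjusted p = 0.0184). Apart from the 3 RNAs, 3 to 5 of the 7 region genes passed the filter in a comparison. For training, 1 of 3 tested was called in CA1, 1 of 4 in CA3 and 1 of 4 in DG. Over all subregions it was 2 of 5. The shares of all genes called were 5.23%, 0.852%, 3.39% and 10.3%. For the training difference of CA1 minus DG 1 of 5 was called, beside 2.75%. Between subregions 0 of 5 were called, near the 0.00682% to 4.05% of all genes. The median training difference of the region genes tested was 0.36 over 3 genes in CA1, 0.17 over 4 in CA3 and 0.40 over 4 in DG. Over all genes it was within 0.01 of 0. Meg3, Rian and Mirg are not counted in these medians. Their differences were 0.10, 0.01 and -0.09 in CA1, 0.57, 0.10 and 0.16 in CA3, and 0.01, 0.19 and -0.01 in DG.

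Proteins of the nuclear bodies that hold Neat1 and Malat1 were read as lists. Of 25 paraspeckle proteins, all tested, 0 rose and 1 fell in CA1 (Cpsf7, a pre-mRNA cleavage factor, -0.25, adjusted p = 0.0483), 0 were called in CA3, and 1 rose and 2 fell in DG, beside 5.23%, 0.852% and 3.39% of all genes called. In DG Hnrnpa1 rose (0.48, adjusted p = 0.0163), and Cpsf7 (-0.40, adjusted p = 0.0170) and Zc3h6 (-0.44, adjusted p = 0.0339) fell. Over all subregions Cpsf7 (-0.28, adjusted p = 0.000577), Rbm3 (-0.20, adjusted p = 0.0271) and Ewsr1 (-0.14, adjusted p = 0.0297) fell, 3 of 25 beside 10.3% of all genes called. Between CA1 and DG, Tardbp (0.19, adjusted p = 0.0253) and Sfpq (0.18, adjusted p = 0.0258), both RNA-binding proteins, were higher in CA1, in the direction of Neat1. Of all genes, 4.05% were called in that contrast. The training difference of Hnrnpul1 was larger in CA1 than in DG by 0.38 (adjusted p = 0.0343), 1 of 25 beside 2.75% of all genes called. The list medians were 0.01, -0.05 and -0.06 for training in CA1, CA3 and DG.

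Of 20 nuclear speckle proteins, all tested, 0 were called by limma in CA1 or CA3, beside 5.23% and 0.852% of all genes. In DG 5 fell and 0 rose, beside 3.39% of all genes called in either direction, and there the Malat1 values of the trained libraries were also the lower ones. Those that fell were Luc7l3, the splicing coactivators Srrm1 (-0.62, adjusted p = 0.000672) and Srrm2 (-0.41, adjusted p = 0.0257), with Acin1 (-0.44, adjusted p = 0.0100) and Pnn (-0.42, adjusted p = 0.0339). Over all subregions Acin1 (-0.19, adjusted p = 0.0214), Srrm1 (-0.24, adjusted p = 0.0333) and Srsf6 (-0.16, adjusted p = 0.0362) fell, 3 of 20 beside 10.3% of all genes called. Acin1 was also higher in CA1 than in DG (0.19, adjusted p = 0.0352), 1 of 20 beside 4.05% of all genes called. The training difference was more negative in DG than in CA1 for Srrm1 (0.55, adjusted p = 0.0136) and Pnn (0.59, adjusted p = 0.0346), and than in CA3 for Srrm1 (0.55, adjusted p = 0.0499955). These are 2 of 20 and 1 of 20, where 2.75% and 0.164% of all genes were called. The 3 calls were lost in 4, 7 and 14 of 21 alternatives. The list median in DG was -0.11, beside about 0 over all genes. In DG, the number of genes at 0 was 7567 and 8636 in the untrained and 3479 to 5944 in the trained libraries. With it as a covariate calls over all genes in DG went from 473 to 0, so none of the 5 falls was then called. This number separates the training groups of DG, so that fit cannot tell it from training and shows nothing particular to the 5. The summed endothelial markers were 658 and 847 against 442 to 495, with 1 of 5 called lower. The summed dentate granule markers were 12783 and 12936 in the untrained and 10208 to 10808 in the trained DG libraries, which do not overlap, with 2 of 7 called lower. Single genes did not overlap for 35.6% of those tested in DG. The part of either list in these differences was not tested.

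Among 18 other snoRNA host genes, 13 to 17 were tested and none was called for training in any subregion. Between CA1 and DG, Snhg14, the imprinted host transcript of the Snrpn region, was higher in CA1 (0.27, adjusted p = 0.0458). Of 33 other long noncoding RNAs, 29 have a row and 25 were tested, and their counts stand beside 5.23% of all genes called in CA1, 0.852% in CA3, 3.39% in DG, 10.3% over all subregions and 4.05% between CA1 and DG. In CA1 3 rose, the X-inactivation transcripts Xist (8.89, adjusted p = 0.000470), Tsix (1.93, adjusted p = 0.00168) and Jpx (0.61, adjusted p = 0.0357). The Jpx call was lost in 11 of 21 alternatives, among them 5 of the 6 in which an animal was left out (adjusted p from 0.0608 to 0.124). In CA3 0 were called by limma. In DG 3 rose, Xist (8.32, adjusted p = 0.0266), Tsix (1.85, adjusted p = 0.0208) and 6330403K07Rik (0.41, adjusted p = 0.0170). Over all subregions 3 rose, Xist (7.45, adjusted p = 0.00114), Tsix (1.72, adjusted p = 0.000376) and 6330403K07Rik (0.23, adjusted p = 0.0112), and 2 fell, C130071C03Rik (-0.19, adjusted p = 0.0219) and Tug1 (-0.14, adjusted p = 0.0320). Xist separates the libraries as the sex-linked transcripts do. Without strand information, reads of Xist and its antisense partner Tsix cannot be told apart. Between CA1 and DG, Kcnq1ot1 (0.24, adjusted p = 0.0154), Mir124a-1hg (0.36, adjusted p = 0.0191), Firre (0.27, adjusted p = 0.0232) and Snhg14 were higher in CA1, the direction of the 5 called RNAs. The median of the 25 in that contrast was 0.14, beside 0.44 for the 7 RNAs and about 0 over all genes.

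Imprinted genes outside the Dlk1-Dio3 region, 25 in number with 22 to 24 tested, gave 0 calls by limma for training in CA1 and CA3 and 1 in DG, Zdbf2 (0.58, adjusted p = 0.0109), beside 5.23%, 0.852% and 3.39% of all genes. Over all subregions 3 of 24 were called, near the 10.3% of all genes. Ndn rose (0.21, adjusted p = 0.0229), and Usp29 (-0.17, adjusted p = 0.0249) and Zim1 (-0.45, adjusted p = 0.0393) fell. Between CA1 and DG, the potassium channel gene Kcnk9 was higher in CA1 (0.30, adjusted p = 0.0292), and Ndn (-0.27, adjusted p = 0.00968) and Gnas (-0.17, adjusted p = 0.0327) were lower. Of the 24 tested, 1 was thus called higher and 2 lower in CA1, beside 4.05% of all genes called in either direction. The training difference of Magel2 was lower in CA1 than in DG by -3.15 (adjusted p = 0.0186), 1 of 24 beside 2.75% of all genes called.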

How the data were processed

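Bulk RNA-seq libraries of CA1, CA3 and DG were made from 3 trained and 3 untrained mice. The deposited signal is an estimated count per gene that the authors obtained by trimming, alignment with STAR and quantification by Salmon, and then normalized across libraries. The submitters' processing notes name bcl2fastq 2.20, FastQC, Trim Galore, STAR, DESeq2 and GRCm38, and the order in which they were used is not given there. Values are not whole numbers and whole reads were not recovered, so no count test was run.

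Training was tested within each subregion, and over all with the subregion as a term, with limma 3.58.1 in R 4.3.3 (trend and robust options) on log2(value + 2), and p-values were adjusted over all genes tested by Benjamini-Hochberg. Subregions and differences of training effects were contrasts in 1 fit of 6 groups. Genes had a value of at least 10 in as many libraries as the smallest group, 3 in CA1 and 2 elsewhere. A call is an adjusted p under 0.05. The fits were tested on simulated data. By their labels libraries are separate animals within a group, which the sex-linked transcripts of CA3 untrained replicate 1 put in doubt. Libraries of an animal did not deviate together (correlations from -0.165 to 0.121), nor did libraries that share a replicate number across training (-0.158 to 0.0639), so the main fits have no block.

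Symbols of 24464 genes (98.0%) were found in GENCODE M21, from which positions and lengths come, and promoter and microRNA sequences are from RefSeq (GRCm38.p6). Named are the 7 RNAs, at most 4 called genes per list and comparison by smallest adjusted p, and the 3 genes most correlated with each RNA, except that some are not reported here. Luc7l3 and Tug1 were named after their values were seen, to complete counts, and alternatives were not run for them. The RNAs and gene lists were chosen with earlier results of these data known.

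Alternatives were pseudocounts of 0.5 and 10, 3 rescalings, 2 filters, no robust estimation, array weights, a replicate block, covariates for genes at 0 and sex-linked transcripts, removal of the GC and length trend, 1 fit of 6 groups and each animal left out. After seeing the data, a covariate for CA1 markers and the omission of CA3 untrained replicate 1 and DG trained replicate 3 were added.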

Additional observations from a re-analysis of the deposited data

Results flagged for a closer look

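The training difference of Snhg11 was marked because it differed between subregions by a test of the difference itself. The CA1 difference minus the CA3 difference was -0.60 (limma adjusted p = 0.0242), with the trained libraries above the untrained ones in CA3 (3 of 3) and mixed in CA1. The CA3 difference minus the DG difference was 0.55 (limma adjusted p = 0.0346). Both contrasts share the CA3 libraries, of which 2 are untrained, and their values are therefore not independent. Neither passed without robust estimation (adjusted p = 0.0865 and 0.0779) or with the CA1 marker sum as a covariate (0.998 and 0.0631).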

How the results depend on the processing

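The differences of Snhg11, Meg3 and Neat1 between CA1 and DG kept their direction and their side of the threshold in all 21 alternatives tried for each (adjusted p up to 0.0120, 0.0297 and 0.0196). The training differences of Snhg11 and Meg3 in CA3 kept their direction in all 21, with adjusted p up to 0.103. Of 1470 values of the 7 RNAs under an alternative, 1313 kept their direction and side of the threshold, 45 fell below it, 20 passed it and 92 changed sign. Of 1041 values of the other genes named by the rule, all called to begin with, 744 kept both, 295 fell below the threshold and 2 changed sign. The only one of the 92 that was called to begin with was Neat1 in CA1 with the sex-linked score. Where a result changed, the cause was not tested. The number of all genes called for training ranged from 6 to 1877 over the alternatives in CA1 (710 as reported), 7 to 1160 in CA3 (118), 0 to 1758 in DG (473) and 0 to 2067 over all subregions (1517). With the sex-linked score, which nearly follows the training labels, it was 6, 47, 6 and 0. It ranged from 6 to 398 for CA1 against CA3 (145), 98 to 645 for CA1 against DG (594) and 0 to 21 for CA3 against DG (1), and for the differences of training effects from 0 to 86 for CA1 minus CA3 (4), 0 to 2039 for CA1 minus DG (404) and 0 to 150 for CA3 minus DG (24). Below, a subregion alone stands for trained minus untrained, and "minus" for a difference of training effects.

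With the number of genes at 0 as a covariate, the number of RNAs called became 0 for CA1 and 1 for the differences of training effects. The values of opposite sign were then Rian -0.31, Mirg 0.28 and Jpx -0.016 in CA1, Miat -0.063 in CA3, Mirg 1.16, Miat 0.52, Malat1 0.053 and Neat1 0.37 in DG, Malat1 -0.0085 for CA1 minus CA3, Meg3 -0.15, Miat -0.35 and Malat1 -0.049 for CA1 minus DG and Miat -0.17 and Malat1 -0.041 for CA3 minus DG. With the GC and length trend removed, the number of RNAs called became 0 for CA1 and 2 for CA1 against CA3. Differences whose sign changed were Snhg11 0.022 and Miat -0.070 in CA1, Miat -0.077 and Malat1 0.068 in CA3, Malat1 0.0072 in all subregions, Miat 0.0024 for CA1 minus CA3 and Meg3 -0.044 for CA1 minus DG. With the sex-linked score (Y-linked genes minus Xist) as a covariate, the number of RNAs called became 0 for CA1 and 0 for CA3. Of opposite sign were Meg3 -0.36, Miat -0.20, Malat1 -0.15 and Neat1 -0.47 in CA1, Miat -0.047 in CA3, Snhg11 -0.25 and Meg3 -0.33 in DG, Mirg -0.34 and Rbm3 0.12 in all subregions and Mirg 0.080 for CA1 against CA3. In 1 fit of all 6 groups, the number of RNAs called became 0 for CA1. With the CA1 marker sum as a covariate, the number of RNAs called became 0 for CA1, 0 for CA3, 0 for CA1 against CA3, 3 for CA1 against DG and 0 for the differences of training effects. Differences whose sign changed were Snhg11 0.18, Mirg 0.26, Miat -0.051 and Malat1 -0.090 in CA1, Mirg -0.020 and Malat1 0.035 in CA3, Rian -0.15 for CA1 against CA3, Rian 0.12 and Malat1 -0.20 for CA1 minus CA3 and Meg3 -0.043 and Miat -0.064 for CA1 minus DG. Without CA3 untrained replicate 1 and DG trained replicate 3, the number of RNAs called became 1 for CA3, 1 for all subregions, 3 for CA1 against DG and 1 for the differences of training effects. Of opposite sign were Mirg 0.18 and Neat1 0.014 in DG and Mirg 0.042 for CA1 against CA3. With the replicate block, the number of RNAs called became 1 for DG. The values of opposite sign were then Malat1 0.084 in CA3 and Snhg11 -0.044 and Meg3 -0.082 in DG. Without robust estimation, the number of RNAs called became 1 for all subregions and 0 for the differences of training effects. With array weights, the number of RNAs called became 1 for all subregions and 3 for CA1 against CA3. Of opposite sign were Mirg 0.013 in CA1, Snhg11 -0.0012 and Meg3 -0.024 in DG, Miat 0.00063 in all subregions, Rian -0.031 for CA1 against CA3, Mirg 0.16 for CA1 minus DG and Rian 0.041 for CA3 minus DG. With upper-quartile rescaling, the number of RNAs called became 1 for the differences of training effects. The values of opposite sign were then Rian -0.019 in CA1. With equal sums over the genes other than the 7, the number of RNAs called became 1 for the differences of training effects. Differences whose sign changed were Rian -0.040 and Miat -0.0074 in CA1, Mirg 0.0094 in DG and Mirg -0.0097 in all subregions. With each animal left out in turn, the number called ranged from 0 to 2 for CA1, 0 to 3 for CA3, 0 to 1 for DG, 0 to 1 for all subregions, 0 to 2 for CA1 against CA3, 3 to 5 for CA1 against DG and 0 to 3 for the differences of training effects. The differences that changed sign ranged as follows. In CA1 they were Snhg11 -0.071 to 0.019, Rian -0.080 to 0.077 and Mirg -0.20 to 0.056. In CA3 they were Miat -0.052 to 0.18 and Malat1 -0.14 to 0.084. In DG they were Snhg11 -0.10 to 0.15, Meg3 -0.15 to 0.18, Mirg -0.31 to 0.18, Miat -0.40 to 0.12 and Neat1 -0.20 to 0.077. In all subregions they were Mirg -0.13 to 0.10 and Miat -0.070 to 0.062. For CA1 against CA3 they were Mirg -0.19 to 0.087. For CA1 minus CA3 they were Miat -0.15 to 0.12 and Malat1 -0.0077 to 0.24. For CA1 minus DG they were Snhg11 -0.22 to 0.11, Meg3 -0.12 to 0.26, Mirg -0.30 to 0.19 and Miat -0.087 to 0.41. For CA3 minus DG they were Mirg -0.10 to 0.35 and Miat -0.081 to 0.46.

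Depth is unknown, so the counting error of low values such as those of Mirg cannot be stated. With 2 untrained libraries in CA3 and DG, a lone library is assumed to vary like the others when 1 is left out. Numbers were not shown to pair libraries. With the replicate block Malat1 passed in DG (-0.30, adjusted p = 5.03e-07) in a fit with 1 residual degree of freedom per gene, Cpsf7 and Jpx in CA1 and Zc3h6 and Xist in DG no longer passed (adjusted p = 0.0792, 0.0739, 0.0556 and 0.317), no other call of the genes named by the rule changed, and calls over all genes in CA3 went from 118 to 1160. Per kb of merged exons in place of the longest transcript, the level was 714 for Snhg11, 865 for Meg3, 124 for Rian and 6.42 for Mirg. Where an animal has no library in a subregion, leaving it out was not run for that subregion.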
